A study of Rattus norvegicus with 12 samples.

Results

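The urokinase system was described here through 5 genes: Plau, which encodes urokinase, Plaur, its receptor, Plat, tissue plasminogen activator, and the serpins Serpine2 and Serpinb2, which inhibit both activators. The members were every probe set of the deposited array table whose single gene symbol is one of these 5, a total of 7 probe sets among 31042, or 5 genes among 14217. The genes were chosen with the readings of these same arrays in view. Their levels and differences are therefore given as a description, with no test. RNA came from cultured neural stem cells of Sprague Dawley rats, taken on postnatal days 3 to 5, and was read on 12 Affymetrix Rat230_2 arrays. There were 4 groups of 3 arrays: BNSC, proliferative cells from brain; BNSCfenhua, differentiated cells from brain; SNSC, proliferative cells from spinal cord; and SNSCfenhua, differentiated cells from spinal cord. Sample titles mark the differentiated groups ("fenhua" is Chinese for differentiation), the design text names both states, and no genetic change or added agent is named for any group. The sources used here do not say how or how long the cells were differentiated. They also leave unsaid whether arrays of 1 group represent different cultures or animals, so spread and p-values may reflect technical variation only.

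Urokinase is a secreted serine protease that cuts plasminogen into plasmin, a broad protease that digests fibrin and extracellular matrix and activates latent growth factors and matrix metalloproteinases. The receptor, uPAR, is anchored to the membrane by a lipid tail, holds urokinase at the cell surface and works with integrins in adhesion and migration. Tissue plasminogen activator carries out the same cut, mostly on fibrin, and is made by neurons and glia, where it takes part in cell migration and synaptic plasticity. Protease nexin-1, the product of Serpine2, is secreted by glia and blocks thrombin, urokinase and tissue activator. Plasminogen activator inhibitor-2, the product of Serpinb2, is largely intracellular and is known as one of the most inducible genes of stressed or inflamed cells.

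Values are log2 signals of a probe set, which reads a transcript near its 3' end with several short probes. Each probe binds with its own strength, so levels are compared between groups for 1 probe set and never between probe sets. A probe set was called dim in a group when all 3 arrays lay under their own 40th percentile, which was 5.91 to 6.41. A fold against a dim group is a lower bound, the brighter mean against the mean of those percentiles, and is written as at least. Array medians were 6.88 to 7.23. Arrays of a group correlated with each other at 0.940 to 0.975, the lowest value being that of SNSC replicates 1 and 2. Of 8 neural stem cell markers measured, Sox2, Nes, Pax6, Fabp7, Prom1 and Notch1 were above the dim level in every group, Sox1 was dim in all 4 and Hes5 in all but BNSCfenhua. The cultures also differed in markers of other cells. The summed signal of 12 fibroblast and meningeal genes was 11.87 to 12.62 in BNSC, 12.17 to 12.32 in BNSCfenhua, 14.88 to 15.96 in SNSC and 16.93 to 17.12 in SNSCfenhua, and none of the 12 was dim in spinal cord cultures. The sum of 12 microglial and macrophage genes was 9.69 to 9.98, 10.90 to 11.07, 12.44 to 13.21 and 12.19 to 12.29 in the same order. Of the 12, 6 were dim in BNSC, 2 in BNSCfenhua, 2 in SNSC and 3 in SNSCfenhua, with Cx3cr1 and Itgam dim in every group. Summed astrocyte markers were 14.72 to 15.06 in BNSC and 16.54 to 16.64 in BNSCfenhua, and 14.42 to 15.28 in SNSC and 15.49 to 15.77 in SNSCfenhua. The single markers were split in spinal cord. Mean Gfap was 12.80 in SNSC and 11.40 in SNSCfenhua, and S100b and Aldoc were also lower in SNSCfenhua. Aqp4, Slc1a2, Slc1a3, Aldh1l1 and Gja1 were higher in SNSCfenhua than in SNSC. Oligodendrocyte lineage markers were 13.21 to 13.51 in BNSC, 15.63 to 15.87 in BNSCfenhua, 15.75 to 15.86 in SNSC and 15.58 to 15.80 in SNSCfenhua. The near-equal spinal cord sums hide differences of single markers. Mean Olig1 was 13.51 in SNSC and 11.25 in SNSCfenhua, and mean Cspg4 9.89 and 6.46. Olig2, dim in SNSCfenhua, Sox10, Mag, Mog and Cnp were also lower there, the last only slightly. Pdgfra and Mbp were higher in SNSCfenhua than in SNSC. Neuronal markers were 13.33 to 13.89 in BNSC, 13.47 to 13.77 in BNSCfenhua and 13.97 to 14.20 in SNSC, but 11.59 to 11.78 in SNSCfenhua. Of 7 endothelial genes measured, Pecam1, Tek, Cldn5 and Vwf were dim in all groups. Kdr was dim only in SNSCfenhua, Flt1 in both differentiated groups and Esam only in BNSCfenhua. The sum of the 7 was 8.15 to 8.64 in BNSC and 7.63 to 8.08 in BNSCfenhua. In spinal cord cultures it was 8.51 to 9.01 in SNSC and 7.78 to 8.18 in SNSCfenhua. The 3' minus 5' signal of beta-actin, a sign of RNA quality, was 0.99 to 1.01 in SNSCfenhua and 0.69 to 0.99 over the other 9 arrays. That of GAPDH did not set SNSCfenhua apart. It was -0.08 to 0.06 in SNSCfenhua, -0.13 to 0.07 in BNSCfenhua, -0.01 to 0.10 in SNSC and 0.08 to 0.13 in BNSC. The part of these differences in the results was not tested, and in bulk RNA fewer cells of a type and less RNA per cell cannot be told apart.

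Promoter sequences were read for the protease and its receptor, since both were low in differentiated cultures of either tissue. Each is the 250 bases before the gene start, from RefSeq on the GRCr8 assembly, 5' to 3' on the gene's strand. Capitals mark matches, on either strand, to the AP-1 motif TGANTCA or the GC box GGGCGG.
Plau, minus strand of chr15:3511988-3512237: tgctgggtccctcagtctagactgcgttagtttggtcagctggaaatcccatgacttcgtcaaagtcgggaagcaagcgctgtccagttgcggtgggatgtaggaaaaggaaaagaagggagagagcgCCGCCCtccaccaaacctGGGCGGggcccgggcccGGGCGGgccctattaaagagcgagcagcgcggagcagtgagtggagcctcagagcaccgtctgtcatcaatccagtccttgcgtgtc
Plaur, plus strand of chr1:89181113-89181362: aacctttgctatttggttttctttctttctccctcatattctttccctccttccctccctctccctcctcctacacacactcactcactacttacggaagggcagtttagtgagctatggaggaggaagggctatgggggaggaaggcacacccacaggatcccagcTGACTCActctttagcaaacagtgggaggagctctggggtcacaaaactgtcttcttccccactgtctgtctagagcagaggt
The Plaur window held 1 AP-1 match, TGACTCA, which began 83 bases before the start, and the Plau window held none. Of 33469 promoters of this length, 6.34% held at least 1 such match. The Plau window held 3 GC boxes against 0 for Plaur, and 30.5% of promoters had at least 1. The short core of Ets family sites, GGAAG, which overlapped neither other motif, was found 1 time in Plau and 5 times in Plaur, and 63.3% of promoters held it. Neither window held the TATA motif TATAAA, found in 12.9% of promoters, or the cyclic AMP element TGACGTCA, found in 1.59%. A match is a run of letters and no evidence of binding. A promoter entry was found for 4 of the 5 genes, and those of Serpine2 and Serpinb2 overlapped the annotated gene and are not shown.

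Urokinase RNA was high in proliferative cultures, highest in brain, and low after differentiation in both tissues. Of its 2 probe sets, 1387675_at read 10.97, 10.40 and 11.06 in BNSC and 6.38, 5.47 and 6.36 in BNSCfenhua. The groups lay more than 4 log2 units apart, with a gap of 4.01 between the nearest arrays. The brain means were 10.81 ± 0.36 and 6.07 ± 0.52 (SD, n = 3 each), a difference of -4.74 or 26.7-fold. In spinal cord the same probe set read 9.42, 8.85 and 8.26 in SNSC and 6.55, 6.07 and 5.73 in SNSCfenhua. Every proliferative array again lay above every differentiated one, but the step was smaller. The spinal cord means were 8.84 ± 0.58 and 6.12 ± 0.41, a difference of -2.72 or 6.61-fold. Between the tissues, proliferative spinal cord cells had 3.90-fold less signal than brain cells, with no overlap. The differentiated groups overlapped and their means differed by 0.05. In BNSCfenhua 1 array, and in SNSCfenhua 2 arrays, were under their own dim level, so that folds depend on how low signals are treated: with 64 added to each linear signal they were 14 in brain and 3.92 in spinal cord.

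The other Plau probe set, 1398287_at, had the same order of groups at lower readings. It read 9.14, 8.68 and 9.23 in BNSC and 7.11, 6.28 and 6.51 in SNSC. It was dim in both differentiated groups, at 2.12, 2.14 and 0.95 in BNSCfenhua and 2.58, 1.49 and 3.24 in SNSCfenhua. No proliferative array overlapped a differentiated one. The signal was at least 6.58-fold lower after differentiation in brain and at least 1.29-fold lower in spinal cord. In SNSC it was 5.23-fold lower than in BNSC. Across the 12 arrays the Plau probe sets correlated at r = 0.963, a description over 4 groups of 3 arrays that mostly carries the group means. Within groups r was 0.003.

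The urokinase receptor was high in proliferative cells of both tissues and low in differentiated ones, and it was lower in differentiated brain than in differentiated spinal cord cultures. Probe set 1387269_s_at read 9.15, 9.60 and 9.81 in BNSC and 1.25, 3.23 and 5.22 in BNSCfenhua, where it was dim. The signal in brain was at least 9.33-fold lower after differentiation. In spinal cord it read 8.85, 9.48 and 8.86 in SNSC and 6.11, 7.19 and 7.41 in SNSCfenhua. These groups did not overlap, and their means of 9.06 ± 0.36 and 6.90 ± 0.70 (SD, n = 3 each) differed by -2.16, or 4.48-fold. In differentiated spinal cord cells all 3 arrays were above their own dim level, replicate 1 only just. SNSCfenhua was at least 1.52-fold above BNSCfenhua, with no overlap. The proliferative groups overlapped, and SNSC was lower by 0.46 on the log2 scale with an SE of 0.28. The second Plaur probe set, 1371286_at, was dim on all 12 arrays, at 0.64 to 4.93, and gives no comparison.

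Tissue plasminogen activator kept nearly the same level in all 4 groups. Plat read 11.84, 11.72 and 12.05 in BNSC and 11.17, 11.60 and 11.47 in BNSCfenhua. The differentiated brain arrays all lay below the proliferative ones, by a gap of only 0.12. The means of 11.87 ± 0.17 and 11.42 ± 0.22 (SD, n = 3 each) differed by -0.46, or 1.37-fold. In spinal cord Plat read 12.16, 12.09 and 11.84 in SNSC and 11.82, 11.57 and 11.86 in SNSCfenhua. These groups overlapped, with a difference of -0.28 (SE 0.13). The tissues overlapped in both states. SNSC was 0.16 above BNSC on the log2 scale, and the sign turned, to -0.05, when each array was centred on its median. SNSCfenhua was 0.33 above BNSCfenhua.

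Protease nexin-1 was bright in every group and differed in opposite directions between the states of the 2 tissues, with overlap in brain. Serpine2 read 12.56, 12.28 and 13.14 in BNSC and 12.98, 13.12 and 13.02 in BNSCfenhua. BNSC replicate 3 lay above all differentiated arrays and the other BNSC arrays below them, and the difference of 0.38 had an SE of 0.26. In spinal cord it read 13.55, 13.88 and 13.90 in SNSC and 13.13, 12.80 and 13.04 in SNSCfenhua. The spinal cord groups did not overlap, and the differentiated mean was lower by 0.79, or 1.72-fold. In order of level, SNSC stood at 13.78 ± 0.20, above BNSCfenhua at 13.04 ± 0.07, SNSCfenhua at 12.99 ± 0.17 and BNSC at 12.66 ± 0.44 (SD, n = 3 each). The last 3 groups overlapped in part or were within their spread of each other. SNSC was 2.17-fold above BNSC with no overlap.

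Plasminogen activator inhibitor-2 had the widest range of the members and was by far the brightest in proliferative spinal cord cultures. Serpinb2 read 11.30, 13.61 and 13.23 in SNSC, where replicate 1 was the low array. In SNSCfenhua it read 6.84, 6.74 and 7.20. The spinal cord means of 12.71 ± 1.24 and 6.93 ± 0.24 (SD, n = 3 each) differed by -5.78, or 55.1-fold, and by 89.9-fold without SNSC replicate 1. In brain it read 7.28, 8.28 and 8.10 in BNSC and 3.38, 2.40 and 0.81 in BNSCfenhua, where it was dim. The brain signal was at least 3.01-fold lower after differentiation, with no overlap. SNSC was 28.3-fold above BNSC, and 46.3-fold without SNSC replicate 1. SNSCfenhua was at least 1.55-fold above BNSCfenhua. In order of level the groups were SNSC, BNSC, SNSCfenhua and BNSCfenhua, and no neighbours in that order overlapped. The fibroblast, meningeal and microglial marker sums given above were also higher in SNSC than in BNSC, and their part in the Serpinb2 difference was not tested.

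**Figure D1:**
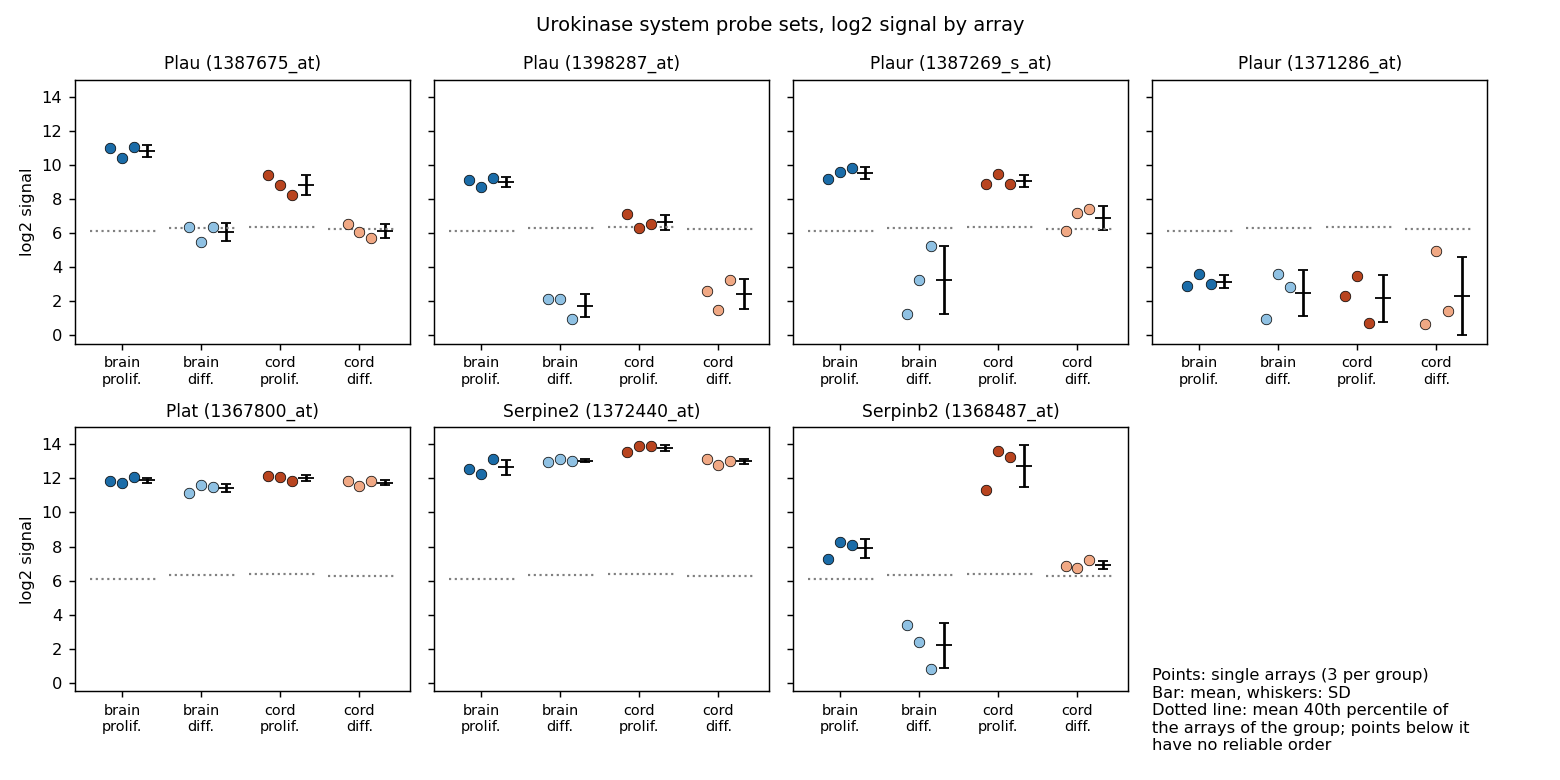
Log2 signal (y axis) of each of the 7 member probe sets by group (x axis; BNSC, BNSCfenhua, SNSC and SNSCfenhua are written as brain or cord, prolif. or diff.), with a point for each of the 3 arrays, a bar and whiskers for mean and SD, and a dotted line for the group's mean 40th percentile, under which values have no reliable order. Plau, Plaur (1387269_s_at) and Serpinb2 sit lower in both differentiated groups, while Plat stays between 11.17 and 12.16 on every array.

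Across the members, differentiated arrays lay wholly below proliferative ones for 5 of 7 probe sets in brain, namely both of Plau, 1 of Plaur, Plat and Serpinb2. Of all 20834 probe sets tested, 29.0% did so. In spinal cord it was also 5 of 7, with Serpine2 in place of Plat, against 27.0% of all. Between proliferative tissues 4 of 7 did not overlap, against 45.5% of all in either direction: both Plau probe sets were lower in spinal cord, and Serpine2 and Serpinb2 were higher. Between differentiated tissues 2 of 7, Plaur and Serpinb2, were higher in spinal cord with no overlap, against 26.1% of all. Because the genes were chosen from these readings, nothing is read from the counts. For probe sets that were dim in some groups, passing the low-signal filter already required a high group; 6 of the 7 passed it. The protease and its receptor were lower after differentiation in each tissue, whereas tissue activator and protease nexin-1 differed by less than 2-fold between the states. The steps in brain and spinal cord share no arrays. They were -4.74 and -2.72 for Plau 1387675_at, and -0.46 and -0.28 for Plat. For Serpine2 they were 0.38 and -0.79, of opposite sign.

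**Figure D2:**
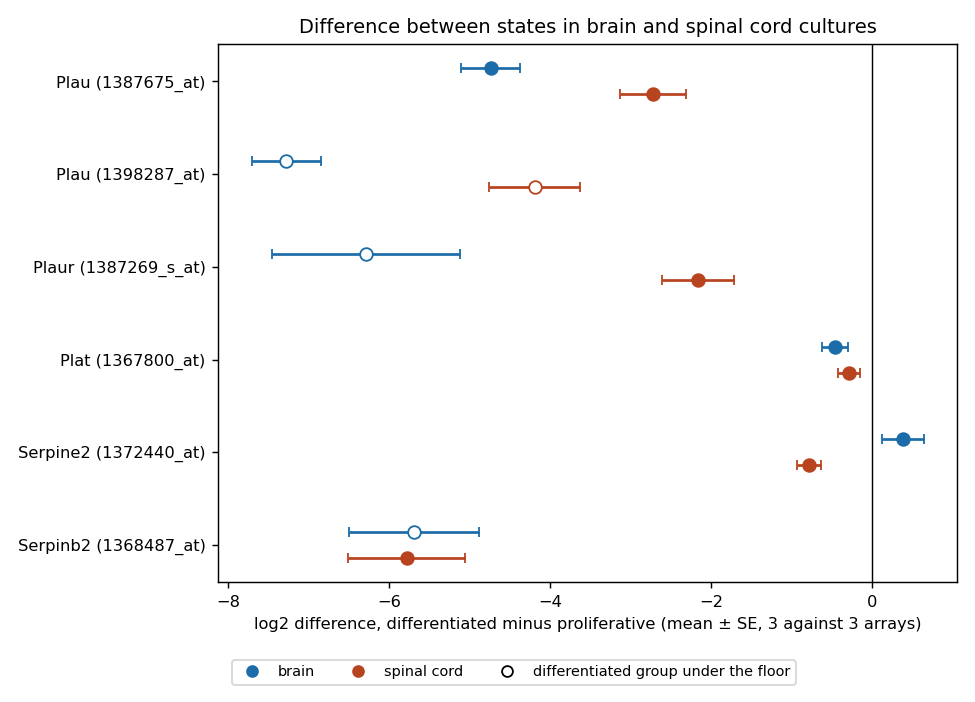
Log2 difference, differentiated minus proliferative (x axis), of the 6 member probe sets that passed the low-signal filter (y axis), in brain (blue) and spinal cord (red), with whiskers for the SE of a difference between 3 and 3 arrays and open circles where the differentiated group was dim, so that its size is uncertain. Plau, Plaur and Serpinb2 lie far below 0 in both tissues, Plat close to 0, and Serpine2 at 0.38 in brain and -0.79 in spinal cord.

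The genes whose profiles were most like each member's are given by Pearson r over the 12 arrays, which are 4 groups of 3, so that r mostly reflects the 4 group means. For Plau 1387675_at they were Cfdp1 (r = 0.984), Iffo2 (0.982), Hmga1 (0.982), Kansl2 (0.981) and Dusp5 (0.979). Hmga1 encodes a chromatin protein abundant in dividing progenitor cells, and Dusp5 a phosphatase of ERK. For Plau 1398287_at they were Arhgap22, Spast, Trappc4, Socs5 and Mettl17, with r from 0.979 down to 0.975, so that the probe sets of this gene shared no neighbour. For Plaur they were Tmem199 (0.958), Maff (0.949), Meg3 (0.948), Vegfa (0.937) and Sfr1 (0.933). Vegfa encodes the main angiogenic growth factor. For Plat they were Rem2 (0.928), Tpp2 (0.927), Tgfbr1 (0.906), Lyve1 (0.882) and Fancb (0.878). For Serpine2 they were Twf1 (0.932), C16h8orf48 (0.927), Serinc3 (0.924), Auh (0.922) and Serinc2 (0.916). For Serpinb2 they were Abcb1a (0.983), Snx9 (0.979), Slc47a1 (0.977), Stc1 (0.976) and Cyp26b1 (0.964). Among the members, Plaur correlated with Plau 1387675_at at 0.752, with Plat at 0.825 and with Serpinb2 at 0.758, while Serpine2 and Plau 1387675_at gave -0.09.

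The rest of the pathway was taken from a list of 84 genes in 6 roles, of which 78 were measured and 61 passed the low-signal filter. These genes were tested with limma across all 20834 probe sets, with Benjamini-Hochberg adjustment and a threshold of 0.05, and each is represented by its brightest probe set. The list was chosen with earlier results of these data known, so its counts are a description and nothing is read from them. Plasminogen itself was not tested: Plg lay at 3.67 to 6.47 with a median of 5.78, and 2 of 12 arrays were above their dim level. Centring arrays on their medians moved the median difference of all probe sets tested from 0.00 to -0.15 for differentiation in brain, from -0.02 to -0.22 between proliferative tissues and from -0.04 to 0.19 for the difference of responses.

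In brain 12 of 61 listed genes rose with differentiation and 24 fell, against 24.1% and 28.5% of the 11218 genes tested. The median change was -0.23 against -0.06 over all genes. Of 4 plasminogen receptors 3 fell, S100a10 by 1.78 (SE 0.08, adjusted p = 2.9e-09), Anxa2 by 1.49 (SE 0.15, adjusted p = 3e-06) and Eno1 by 0.38, named after their values were seen. S100a10 and Anxa2 form the complex that holds plasminogen and tissue activator at the cell surface. A second Anxa2 probe set gave -0.40 with an adjusted p of 0.47. Of 9 genes of the thrombin and tissue factor group, 6 fell and 1 rose. Thbd, thrombomodulin, which turns thrombin towards protein C, fell at least 12-fold (adjusted p = 4e-08), and F2rl1, the protease-activated receptor PAR2, fell 9.37-fold (adjusted p = 1.8e-07). The protease gene Prss23 rose 8.08-fold (adjusted p = 4.3e-09).

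Of 15 receptors and transcription factors known to act upstream of the Plau gene, 7 fell and 1 rose in brain. Over all genes tested 28.5% fell and 24.1% rose, and these shares also apply to the other roles below. Among the 7, the call of Junb was lost without BNSC replicate 1 or 3 or BNSCfenhua replicate 2 or 3 (limma adjusted p of 0.088 to 0.14). Fosl1, a subunit of AP-1, the factor whose motif was searched above, read 11.61, 11.57 and 11.61 in BNSC and 8.10, 7.88 and 8.03 in BNSCfenhua. It fell 12.1-fold (log2 -3.59, SE 0.22, adjusted p = 3e-08). Fosl2, another AP-1 subunit, fell at least 1.66-fold (adjusted p = 6.3e-06). Fos rose by 0.58. Among 15 substrates 3 rose and 4 fell, or 20% and 26.7%, near the shares over all genes. Tgfb2, whose latent product plasmin can release, rose 7.42-fold (adjusted p = 1.7e-09), and the gelatinase gene Mmp2 rose 4.94-fold (adjusted p = 0.00024). The collagenase gene Mmp13 fell at least 4.41-fold (adjusted p = 2.2e-05). Of 2 other inhibitors tested, A2m, the broad protease trap alpha-2-macroglobulin, rose 24.7-fold (log2 4.63, SE 0.31, adjusted p = 7.4e-08), from 8.47, 7.94 and 8.49 to 12.87, 12.95 and 12.96. Serpini1, neuroserpin, the neuronal inhibitor of tissue activator, fell by 2.01 (SE 0.37, adjusted p = 0.00058). Of 16 partners and clearance receptors of urokinase, 6 rose and 3 fell. Sorl1, a sorting receptor that takes up urokinase complexes, counted as not called by its brightest probe set (0.29), whereas its other 5 probe sets rose by 2.46 to 4.12 (adjusted p of 2e-07 to 0.0043). The integrin gene Itgb2 rose 3.43-fold (adjusted p = 0.00023), while Itga3, a lateral partner of uPAR, fell by 1.84 (SE 0.27).

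In spinal cord 19 of 61 listed genes rose and 17 fell, against 20.9% and 22.6% of all genes tested. The median change of -0.04 equalled that of all genes. Tgfb2 rose 4.23-fold (adjusted p = 4.5e-08) and Mmp14, the membrane metalloproteinase gene, rose 3.62-fold (adjusted p = 1.1e-05). Serpini1 rose 5.61-fold (adjusted p = 0.00013), from 7.47, 8.04 and 8.05 in SNSC to 10.19, 10.27 and 10.57 in SNSCfenhua. Thbd rose 7.04-fold (adjusted p = 1.8e-06). Among the upstream factors 6 fell and 2 rose: Fos fell 3.96-fold (adjusted p = 2.8e-08), Fosl1 fell by 1.36 (SE 0.22, adjusted p = 0.00021), and Met, the receptor of hepatocyte growth factor, fell at least 1.18-fold (adjusted p = 0.0019). The tissue factor gene F3 fell 2.95-fold (adjusted p = 1.8e-07), and Mmp3, stromelysin-1, fell 3.19-fold (adjusted p = 0.002). Of 4 plasminogen receptors 2 fell and 1 rose, named after their values were seen. S100a10 fell by 0.74 and Eno1 by 0.27, while Anxa2, which fell in brain, rose by 0.48 (adjusted p = 0.019). The Anxa2 call was lost without SNSC replicate 1, SNSC replicate 3 or SNSCfenhua replicate 1 (adjusted p of 0.068 to 0.073), and that of Eno1 without any 1 of 8 arrays (0.055 to 0.18). The calls of Pdgfd, which rose at least 1.08-fold (adjusted p = 0.017), and of Mmp13, which fell 3.17-fold (adjusted p = 0.021), each depended on single arrays. For Pdgfd the adjusted p was 0.06 without SNSC replicate 1, 0.051 without SNSCfenhua replicate 1 and 0.056 without SNSCfenhua replicate 2. For Mmp13 it was 0.081 without SNSC replicate 2 and 0.055 without SNSC replicate 3, and 0.055 and 0.053 without SNSCfenhua replicates 1 and 2.

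**Figure D3:**
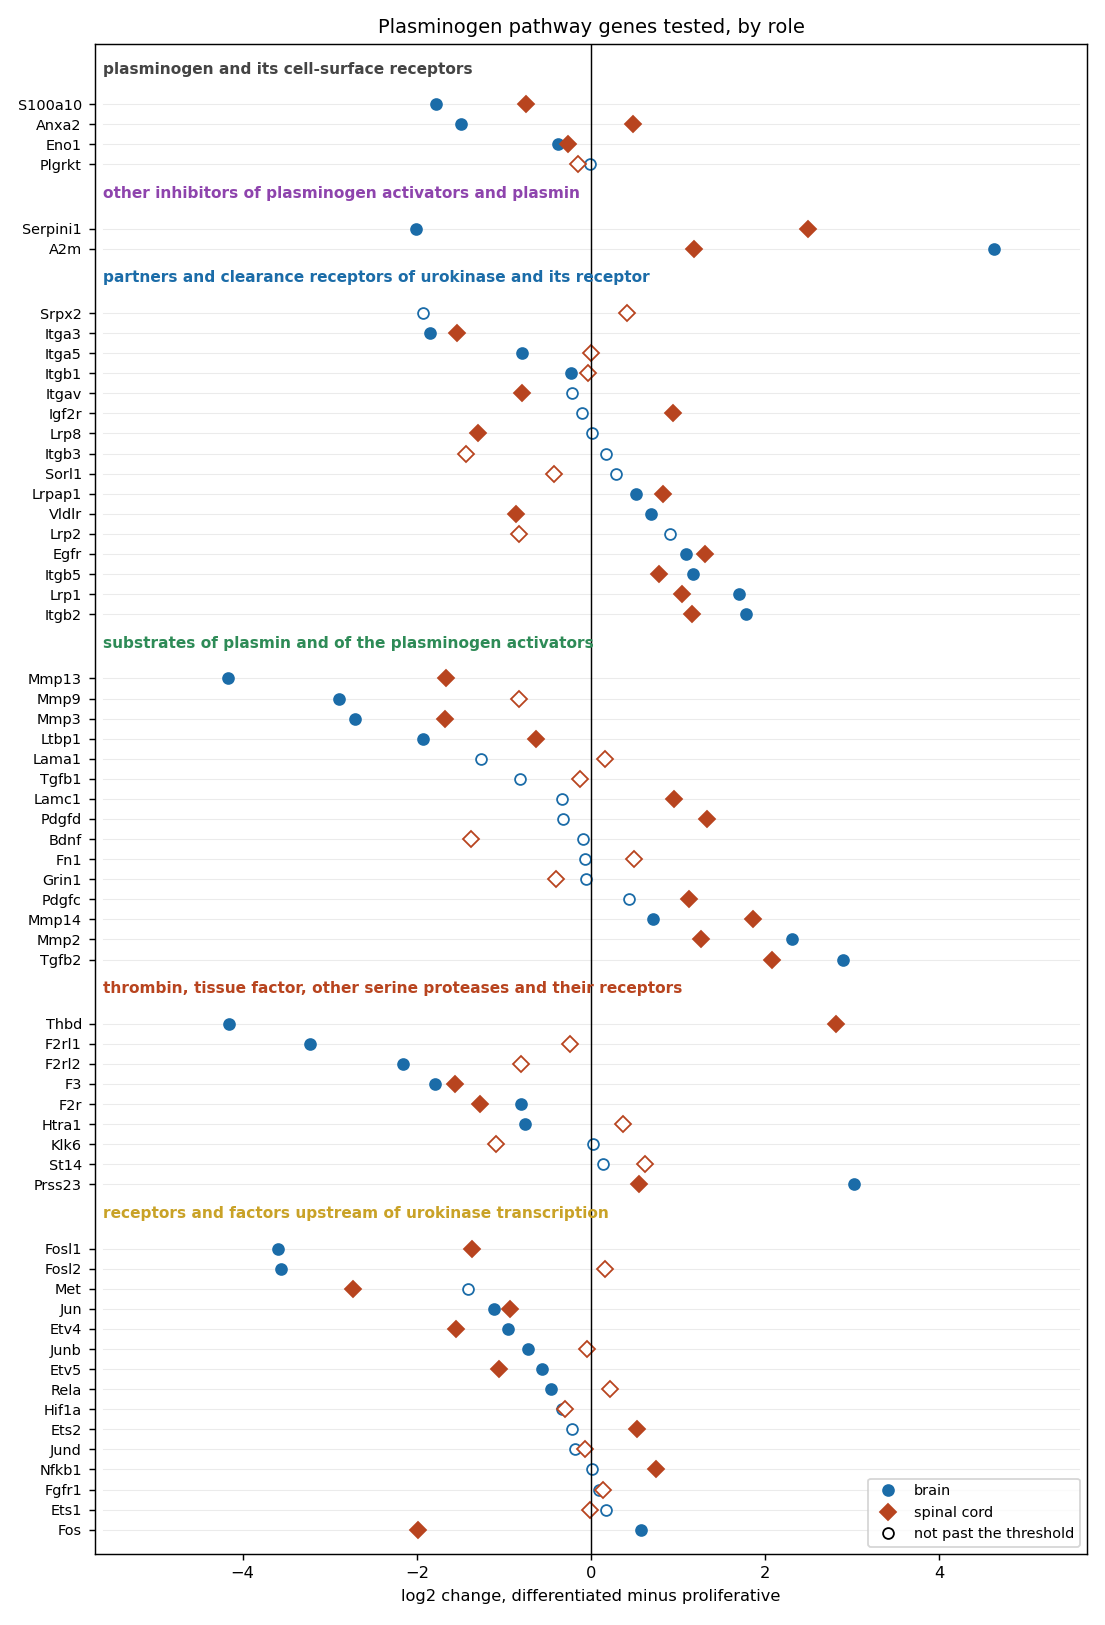
Log2 change, differentiated minus proliferative (x axis), of each of the 61 pathway genes (y axis, grouped by role), with circles for brain, diamonds for spinal cord and open symbols for changes that did not pass limma's threshold. Fosl1, Jun and F3 fell and Tgfb2 rose in both tissues, while Thbd and Serpini1 fell in brain and rose in spinal cord.

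The responses of the tissues differed for 27 of 61 genes in the interaction test of limma. In 18 the change was more positive in spinal cord and in 9 more positive in brain, against 23.7% and 21.2% of all genes tested. The median difference was 0.23 against 0.05 over all genes, and after median centring the split was 20 to 6 rather than 18 to 9. In 5 of the 27, Thbd, Fosl2, Mmp13, Mmp9 and Pdgfd, a group was dim, and the fitted difference rests in part on signal under the dim level. The largest fitted difference was that of Thbd, 6.98 (SE 0.36, adjusted p = 1.7e-08), or at least 6.40 with the dim group set at the dim level. Thbd read 9.62, 9.63 and 10.39 in BNSC, 5.48, 5.89 and 5.80 in BNSCfenhua, 9.22, 10.31 and 9.43 in SNSC and 12.57, 12.40 and 12.43 in SNSCfenhua. Serpini1 followed with 4.49 (adjusted p = 1.6e-05), and its second probe set gave 4.69. The fitted difference of Fosl2 was 3.72 (adjusted p = 0.00011), but only at least 0.90 by the same bound. F2rl1 differed by 2.98 (adjusted p = 1.1e-05). In the other direction stood A2m with -3.44 (adjusted p = 3.2e-05), Fos with -2.56 (adjusted p = 6.1e-08), Prss23 with -2.47 (adjusted p = 8.9e-07) and Vldlr, a clearance receptor of urokinase complexes, with -1.55 (adjusted p = 1.1e-05). Mmp13 differed by 2.50 (adjusted p = 0.015), but by at least 0.48 only by that bound and by 0.62 (adjusted p = 0.26) with 64 added to each signal. The brightest Sorl1 probe set did not pass, at -0.71, but the other 5 differed by -2.92 to -5.94 (adjusted p of 1.7e-06 to 0.0045). Lrp2, megalin, differed by -1.74 (adjusted p = 0.045), and the call was lost under most alternatives, with adjusted p of 0.057 to 0.11.

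Between proliferative cultures, matrix metalloproteinase genes had the largest differences among the substrates of plasmin. Of 61 pathway genes 26 were higher in spinal cord and 12 higher in brain, against 21.2% and 22.8% of all genes, but after median centring the split was 22 to 19 and the list's median moved from 0.07 to -0.14. Substrates were higher in spinal cord for 9 of 15 and lower for 1. Mmp3 was 62.9-fold higher (adjusted p = 4e-08), with 6.50, 6.89 and 7.46 in BNSC and 11.94, 13.65 and 13.20 in SNSC. Mmp13 was 26.3-fold higher (adjusted p = 1.1e-05), and Mmp2 14.7-fold (adjusted p = 3.9e-06) or 22.1-fold without SNSC replicate 1. Srpx2, a ligand of the urokinase receptor, was at least 8.85-fold higher (adjusted p = 0.00019), and the kallikrein gene Klk6 at least 5.25-fold (adjusted p = 3.2e-05). Genes lower in spinal cord, as Plau was, included F2rl1, 7.63-fold (adjusted p = 5.5e-07), Fosl1, 5.29-fold (adjusted p = 1.6e-06), Serpini1, 3.81-fold (adjusted p = 0.0011), Ltbp1, which tethers latent TGF-beta, 3.44-fold (adjusted p = 6.1e-06), and Egfr, 3.22-fold (adjusted p = 5.2e-05).

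Between differentiated cultures 28 of 61 genes were higher in spinal cord and 13 lower, against 22.3% and 22.4% of all genes, with a median of 0.46 against 0.00. Thbd was at least 71.9-fold higher (adjusted p = 4.9e-10). Among substrates 11 of 15 were higher and 1 lower: Mmp13 was at least 36.5-fold higher (adjusted p = 1.1e-07), Mmp3 at least 31.0-fold (adjusted p = 4.2e-09) and Mmp9 at least 11.0-fold (adjusted p = 3.5e-07). Srpx2 was at least 10.3-fold higher (adjusted p = 5.5e-06). Plasminogen receptors Anxa2 and S100a10 were higher by 1.96 (SE 0.15) and 0.44 (SE 0.08), though the second Anxa2 probe set gave 0.57 with an adjusted p of 0.31. Lower in spinal cord were Prss23, 3.17-fold (adjusted p = 8e-07), the apolipoprotein E receptor gene Lrp8, 3.02-fold (adjusted p = 2.9e-06), Egfr, 2.78-fold (adjusted p = 0.00011), F2r, the thrombin receptor PAR1, 2.75-fold (adjusted p = 2.5e-08), and Fos, 2.48-fold (adjusted p = 6e-07). These are read from brightest probe sets. The 5 other Sorl1 probe sets gave larger log2 differences, -2.95 to -4.11 (adjusted p of 2.9e-08 to 0.0056). The fibroblast and meningeal sum, 12.17 to 12.32 in BNSCfenhua against 16.93 to 17.12 in SNSCfenhua, moved with these tissue differences, and its part in them was not tested.

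**Figure D4:**
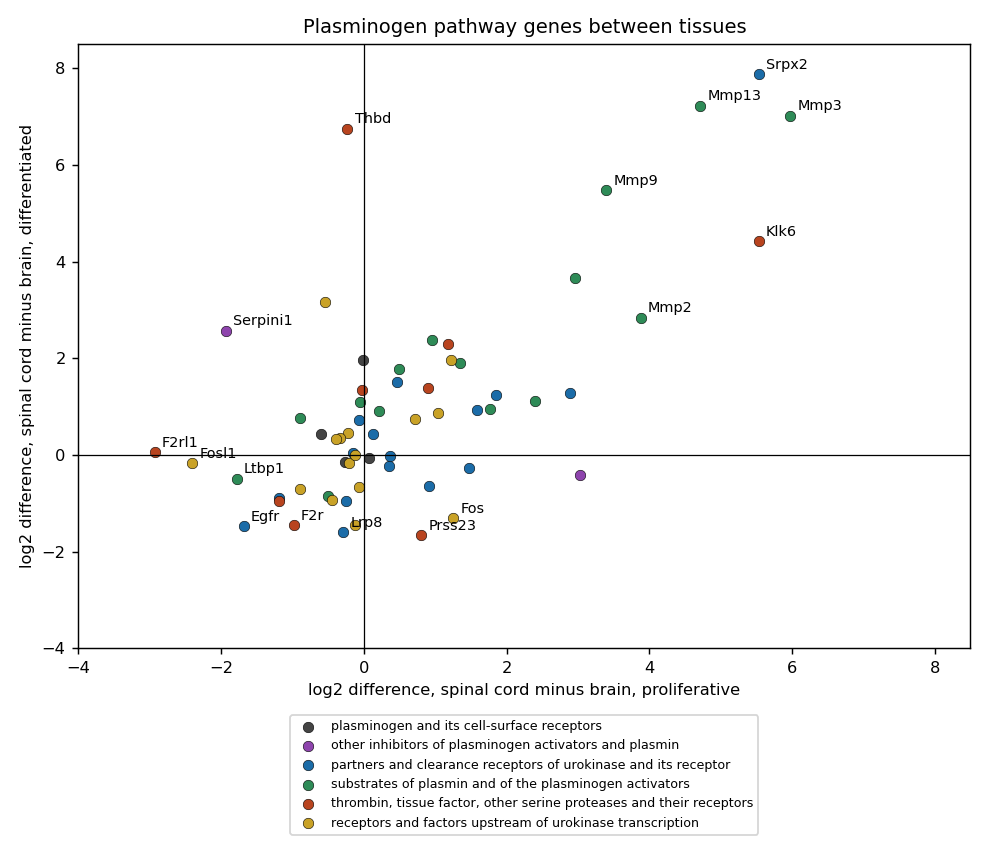
Log2 difference of spinal cord minus brain for each of the 61 pathway genes in proliferative (x axis) and differentiated (y axis) cultures, 1 point a gene, coloured by role, whether or not it passed limma's test, with genes named in the text labelled. Mmp3, Mmp13, Mmp2, Srpx2 and Klk6 lie above 0 on both axes, Egfr and F2r below 0 on both, and Thbd near 0 in proliferative but at 6.75 in differentiated cultures.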

How the data were processed

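RNA of cultured cells was measured on 12 Affymetrix Rat230_2 arrays, 3 per group. The authors deposited 1 log2 signal for each probe set, computed with MAS5 and affy, per the submitters' processing notes, which give no version. Their linear mean with 2% trimmed at each end was 500 on every array, so each array had been scaled on its own. Detection calls were not used here. From 31099 probe sets 57 controls were left out. The 20834 of 31042 that exceeded the 40th percentile on at least 3 arrays were tested.

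Gene names came from the platform annotation, updated by Entrez ID to GRCr8 symbols (20758 of 20826 probe sets with 1 symbol; 436 had several and 9780 none). Python 3.11.15 gave means, SDs and differences. limma 3.58.1 in R 4.3.3 (lmFit, eBayes with a mean-variance trend, 1 mean per group, no replicate block, 8 residual degrees of freedom) tested the pathway list, and was tested on simulated data. Named were all member probe sets, per comparison the 5 largest rises and falls of the list past 0.05, Plg and the 5 most alike genes; other names were chosen after their values were seen. Members and lists were chosen with earlier results of these data known, as was the dim level. Alternatives were median centring, quantile normalization, a pseudocount of 64, no filter or one at the 60th percentile, a replicate block, no trend, and each array left out.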

Additional observations from a re-analysis of the deposited data

Results flagged for a closer look

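Among the pathway genes named by the rule, 18 responded differently to differentiation in spinal cord and in brain by the interaction test of limma. Over all genes tested, 23.7% were more positive in spinal cord and 21.2% more positive in brain. The rule picked the largest changes in these same comparisons, the interaction included, so nothing is read from the count. Each difference is given as the spinal cord change minus the brain change on the log2 scale. Opposite changes that each passed the test were seen for Serpini1, which differed by 4.49 (2.49 in spinal cord, -2.01 in brain), Thbd by 6.98 (2.82 and -4.16), Fos by -2.56 (-1.99 and 0.58) and Vldlr by -1.55 (-0.86 and 0.69). A smaller fall in spinal cord than in brain was seen for Fosl1, by 2.23 (-1.36 and -3.59), Ltbp1, by 1.29 (-0.64 and -1.93), and Mmp13, by 2.50 (-1.66 and -4.17; 0.62 with an adjusted p of 0.26 under a pseudocount of 64). The spinal cord fall of Ltbp1 did not pass without SNSC replicate 2 (adjusted p = 0.061). F2rl1 differed by 2.98, Fosl2 by 3.72 and Mmp9 by 2.07, and their spinal cord changes of -0.24, 0.16 and -0.82 did not pass the test. Thbd, Mmp13, Fosl2 and Mmp9 were dim in BNSCfenhua, so that only differences of at least 6.40, 0.48, 0.90 and 0.07 are measured. These bounds are for the brightest probe sets. The other Mmp9 probe set gave a fitted difference of 5.15 (adjusted p = 2e-05; -1.10 and -6.25), for which no bound was computed. Pdgfd was dim in BNSCfenhua and SNSC, and with both at the dim level its difference was -0.15, of the opposite sign. A smaller rise in spinal cord was seen for A2m, by -3.44 (1.19 and 4.63), Prss23, by -2.47 (0.55 and 3.01), and Tgfb2, by -0.81 (2.08 and 2.89), although another Tgfb2 probe set gave 0.11 with an adjusted p of 0.82. Mmp14 rose more in spinal cord, by 1.15, its brain rise not passing without BNSC replicate 2 (adjusted p = 0.062), and F2r fell more there, by -0.47. Lrp8 differed by -1.30, Lrp2 by -1.74 and Pdgfd by 1.65, and the calls of Lrp2 and Pdgfd were each lost without 8 of the 12 arrays in turn, with adjusted p of 0.066 to 0.11 and 0.056 to 0.072. No member was tested in this way.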

How the results depend on the processing

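For the pathway list, the number of genes called stayed within 1.5 times under every alternative in all 5 comparisons. Leaving out single arrays gave 32 to 38 calls for brain differentiation, 31 to 37 for spinal cord, 34 to 39 between proliferative tissues, 36 to 43 between differentiated tissues and 22 to 29 for the difference of responses. Single genes lost their call without at least 1 array in 6 of 36, 6 of 36, 8 of 38, 5 of 41 and 5 of 27 cases. The 35 member differences were recomputed under each alternative, and 16 of the recomputed values moved by more than 1 SD while 509 did not. Those that moved were mostly with a pseudocount of 64 in dim groups, where the size of a difference is not settled by these signals. No shared effect of replicate number was seen: of 18 same-numbered pairs 0 correlated above 0.1 (r from -0.12 to 0.05), and 0 of 12 arrays were closest to their own number. With deviations taken from means of 3 arrays, this cannot show whether same-numbered samples shared an animal or batch. With a replicate block the list gave 36, 35, 36, 39 and 26 calls, against 36, 36, 38, 41 and 27. The 3 arrays per group limit the precision.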
